A study of Homo sapiens with 25 samples.

Results

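Of the 20508 regions that carried H3K4me3 in both control and FOXD2 HCT116 cells, 1066 (5.2%) overlapped no H3K27ac peak in any library. These regions were found by merging the peaks of the 2 H3K4me3 lists into 26149 regions on chromosomes 1 to 22 and X, keeping those held by both lists, and removing every region that shared at least 1 bp with a peak of any of the 4 H3K27ac lists. The members were thus chosen by the H3K4me3 and H3K27ac peak calls, and the absence of H3K27ac from them is not a finding. The other 19442 shared regions, with H3K27ac in at least 1 list, served for comparison. HCT116 is an established human colorectal carcinoma line. Control cells carried an empty pSin lentiviral vector and FOXD2 cells the full-length FOXD2 coding sequence in the same vector, and both were kept under puromycin. FOXD2 is a forkhead transcription factor. H3K4me3 was mapped once in each group, and H3K27ac, H3K4me1 and MLL4 in duplicate, with 2 libraries from control and 2 from FOXD2 cells. A separate set of cells, given a pcDNA3.1 plasmid for FOXD2 with FLAG and 6xHis tags, was mapped with 2 libraries per tag antibody. No tag library from cells without tags was used here. Nothing in the labels says that libraries of a group came from separate cultures, so every p-value below is set by variation among libraries that may be technical.

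H3K4me3 is placed by the SET1 and MLL families of methyltransferases and marks the starts of genes, most strongly where the DNA is rich in CpG dinucleotides, which CXXC-domain subunits of these enzymes bind when unmethylated. H3K27ac is written by the acetyltransferases p300 and CBP and accompanies active promoters and enhancers. A promoter with H3K4me3 and without H3K27ac is often described as poised or weakly used, and many CpG-island promoters of developmental genes in that state carry Polycomb's H3K27me3, which is not analysed here. H3K4me1 typically flanks promoters and covers enhancers, where MLL4 (KMT2D) is a main writer. Lysine 27 can carry acetyl or methyl groups but not both.

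Peak lists say where a peak was called and not how much of a mark was present, and since read depth is unknown, a region without a peak may still carry the mark below the calling threshold. The control and FOXD2 H3K4me3 lists held 24528 and 22975 peaks. H3K27ac lists held 85122 to 141008, H3K4me1 lists 95756 to 129887 and tag lists 26942 to 48194. The MLL4 lists held 13571 to 22493 peaks except FOXD2 replicate 2, which held 4676 and stood apart from the rest. Of 12 markers of colorectal epithelium, 10 carried shared H3K4me3 with H3K27ac over the gene, among them EPCAM, CDH1, KRT8 and CDX2, while VIL1 and CDX1 had no shared H3K4me3. The blood cell markers PTPRC, CD3E and CD14 had no shared H3K4me3. Shared H3K4me3 with H3K27ac lay over 4 of 6 stromal and endothelial markers and 2 of 5 neural markers. Members lay over LGR5, SYP and SNAP25 among these markers, and LGR5 and SYP also overlapped shared H3K4me3 with H3K27ac.

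Promoters of best-ranked members are printed as examples. They do not stand for all members, since 239 of the 1033 on chromosomes with annotated starts held one. Regions were ranked by the sum of their ranks of the authors' −log10 q in both H3K4me3 lists, and the 5 best-ranked members that contain the whole RefSeq promoter window of the nearest gene are printed (CYB5R4 and FANCM, whose windows run past the edge of the region, are passed over), with a sixth, RNF182, picked after values were seen because it had the lowest CpG ratio among members in the better-ranked 10254 of the shared regions. Each window runs from 250 bases before to 50 after the annotated start, 5′ to 3′ on the gene's strand, from RefSeq (GRCh38.p14), and capitals mark each CG dinucleotide. The CpG ratio is the number of CG divided by the number that the C and G content of the window would give.
NTHL1 (chr16:2047785-2048084, minus strand): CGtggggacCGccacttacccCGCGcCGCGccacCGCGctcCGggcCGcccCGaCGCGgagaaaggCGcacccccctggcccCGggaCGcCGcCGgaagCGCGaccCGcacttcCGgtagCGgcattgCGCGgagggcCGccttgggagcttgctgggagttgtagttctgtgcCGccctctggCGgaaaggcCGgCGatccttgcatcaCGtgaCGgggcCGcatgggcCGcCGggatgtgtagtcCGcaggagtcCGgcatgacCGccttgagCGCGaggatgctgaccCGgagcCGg
ARMH4 (chr14:58152164-58152463, minus strand): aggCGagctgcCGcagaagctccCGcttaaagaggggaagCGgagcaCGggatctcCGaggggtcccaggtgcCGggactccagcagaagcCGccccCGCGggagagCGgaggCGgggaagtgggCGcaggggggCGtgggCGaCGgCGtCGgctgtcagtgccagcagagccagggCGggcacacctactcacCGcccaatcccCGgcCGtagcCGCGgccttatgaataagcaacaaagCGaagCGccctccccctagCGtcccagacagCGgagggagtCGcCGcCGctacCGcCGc
TRIM62 (chr1:33181994-33182293, minus strand): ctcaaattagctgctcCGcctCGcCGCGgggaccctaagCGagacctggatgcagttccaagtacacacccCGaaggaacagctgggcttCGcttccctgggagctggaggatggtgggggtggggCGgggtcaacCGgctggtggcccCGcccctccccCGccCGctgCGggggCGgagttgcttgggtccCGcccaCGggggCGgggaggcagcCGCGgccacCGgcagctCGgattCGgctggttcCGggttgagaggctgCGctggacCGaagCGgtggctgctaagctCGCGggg
RNFT2 (chr12:116738065-116738364, plus strand): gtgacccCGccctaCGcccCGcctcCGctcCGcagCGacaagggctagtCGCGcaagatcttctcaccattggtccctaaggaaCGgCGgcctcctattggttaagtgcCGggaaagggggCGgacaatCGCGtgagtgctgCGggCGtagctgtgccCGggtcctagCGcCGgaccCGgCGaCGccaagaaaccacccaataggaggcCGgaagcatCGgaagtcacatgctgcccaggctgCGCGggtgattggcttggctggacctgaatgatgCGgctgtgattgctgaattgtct
SPECC1 (chr17:20009109-20009408, plus strand): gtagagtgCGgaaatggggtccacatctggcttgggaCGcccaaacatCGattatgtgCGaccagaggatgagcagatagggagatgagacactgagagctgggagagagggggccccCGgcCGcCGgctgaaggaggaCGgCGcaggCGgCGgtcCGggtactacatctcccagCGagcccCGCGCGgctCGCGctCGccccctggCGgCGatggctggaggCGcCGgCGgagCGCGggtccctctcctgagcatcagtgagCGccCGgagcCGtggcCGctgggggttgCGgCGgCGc
RNF182 (chr6:13924196-13924495, plus strand): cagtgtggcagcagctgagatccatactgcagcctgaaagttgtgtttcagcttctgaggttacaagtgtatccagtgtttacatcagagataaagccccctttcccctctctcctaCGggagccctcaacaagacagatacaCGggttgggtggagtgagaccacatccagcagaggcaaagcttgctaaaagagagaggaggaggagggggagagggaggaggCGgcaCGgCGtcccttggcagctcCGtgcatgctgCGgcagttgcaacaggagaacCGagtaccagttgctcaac
NTHL1, a glycosylase of base excision repair, had 42 CG and a CpG ratio of 1.04. Its window also held CCGGAAG, the core letters of an ETS site, and CACGTG, an E-box. ARMH4 and SPECC1 had 33 CG each, with ratios of 0.875 and 0.912. TRIM62, a ubiquitin ligase, had 28 CG with a ratio of 0.743, and RNFT2, a RING finger membrane protein, had 27 with 0.899. The window of RNFT2 held both CCAAT and CCGGAAG. RNF182, another RING finger protein, had 8 CG with a ratio of 0.354, and its window held TGTTTAC, the core letters of a forkhead site. That member carried a tag peak in FLAG replicate 2 and in no other tag list. A match of letters does not show that a factor binds there.

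Members were narrow and weak among H3K4me3 regions. Their median width was 603 bp (10th percentile 341, 90th 1402), against 1719 bp in the other shared regions. The fold enrichment of a peak is the authors' own value, set within its list, and folds of different lists are given side by side and not compared. It had a median of 17.9 in the control and 16.6 in the FOXD2 H3K4me3 list, against 74.8 and 68.0 in the others. Only 47 members (4.41%) were in the better-ranked 10254 of the shared regions. A −log10 q of 5 in both H3K4me3 lists was reached by 1025 of the 1066 members and 18864 of the 19442 others. The regions were also divided by the number of H3K27ac lists that touched them, in the 1066, 773, 1080, 1626 and 15963 regions with 0, 1, 2, 3 and 4 lists. That number is the rule's own measure, and at an overlap of 1 bp a wider region can touch more lists by its width alone, so the values are a description. Median width went from 603 through 748, 898 and 1021 to 1889 bp. The share holding an annotated gene start went from 23.1% through 29.2%, 34.5% and 36.8% to 56.6%. The mean MLL4 share was 7.11%, 13.8%, 17.5%, 23.4% and 39.0% in the same order. For width, starts and MLL4 the step from 3 to 4 lists was larger than each step before it.

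**Figure D1:**
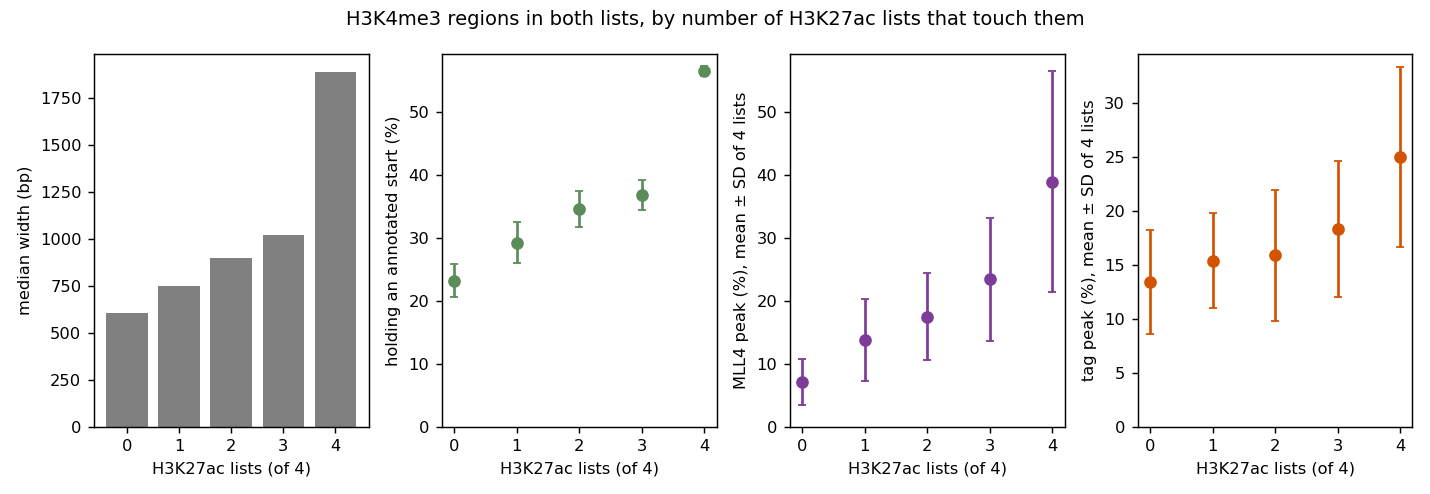
Shared H3K4me3 regions by the number of H3K27ac lists that touch them (x axis, 0 to 4). Bars give median width in bp; points give the share with an annotated start (bars are 95% Wilson intervals) and the mean share with an MLL4 or tag peak (bars are the SD over 4 lists). Each measure is lowest at 0 lists, where width is 603 bp, and highest at 4 lists, where it is 1889 bp; a wider region can touch more lists by its width alone.

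The best-ranked members lay at gene starts. The region of NTHL1 (hg38, chr16:2046446-2049014), which also holds the start of TSC2, the tuberous sclerosis gene, carried H3K4me3 at fold 154 in control and 134 in FOXD2 cells. It ranked 793 of 20508 and lay 1436 bp from the nearest H3K27ac peak. H3K4me1 was called there in all 4 lists, at fold 15.5, 12.1, 9.64 and 7.83 in control replicates 1 and 2 and FOXD2 replicates 1 and 2, MLL4 in FOXD2 replicate 1 at fold 5.01, and no tag peak. ARMH4 (chr14:58151304-58152923) followed at fold 146 and 98.3. TRIM62 (chr1:33180312-33182578) had fold 140 and 108, and RNFT2 (chr12:116736277-116739354) 117 and 108. All 4 stood far above the member medians in both lists. CYB5R4, a cytochrome b5 reductase, had fold 128 and 103, with the nearest H3K27ac 44815 bp away. FANCM, the Fanconi anemia DNA translocase, had 124 in control cells and lay 213 bp from H3K27ac. SPECC1, CFAP52 (a ciliary protein, in a region that also holds the start of the SNARE gene STX8), ENPP5 and FRY completed the first 10, with control folds of 85.5 to 112. The 5 widest members were at BCL11A, a transcriptional repressor, at 3839 bp, RNFT2 at 3078, GAS1, a Hedgehog co-receptor, at 2961, KCNH2, the hERG potassium channel, at 2776 and ZBTB7C at 2636 bp.

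Many members lay beside H3K27ac and many lay far from it. The gap to the nearest H3K27ac peak of any list had a median of 4199 bp, with quartiles of 728 and 22872 bp. It was under 1 kb for 320 members, 1 to 10 kb for 347 and over 10 kb for 399, of which 170 were over 50 kb away. Members with an annotated start were the more distant, with a median gap of 12085 bp against 3438 bp for those without. Just inside the rule, the members nearest to CD177 and CSTPP1 ended where an H3K27ac peak began, at a gap of 0 bp. The first lay 36390 bp outside CD177 and the second inside CSTPP1. Just outside the rule were the best-ranked regions touched in a single list over the fewest bases. They lay 45626 bp outside ZMIZ1, touched over 4 bp, and inside RETREG1, touched over 11 bp. In all, 35 members lay within 100 bp of an H3K27ac peak. At the other end, HPGD, the enzyme that degrades prostaglandins, had an H3K4me3 region of 1588 bp at its start and no H3K27ac within 236958 bp. Without the H3K27ac list of FOXD2 replicate 2, which is the longest, 1477 regions met the rule. Asking for no H3K27ac within 1 kb left 746.

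**Figure D2:**
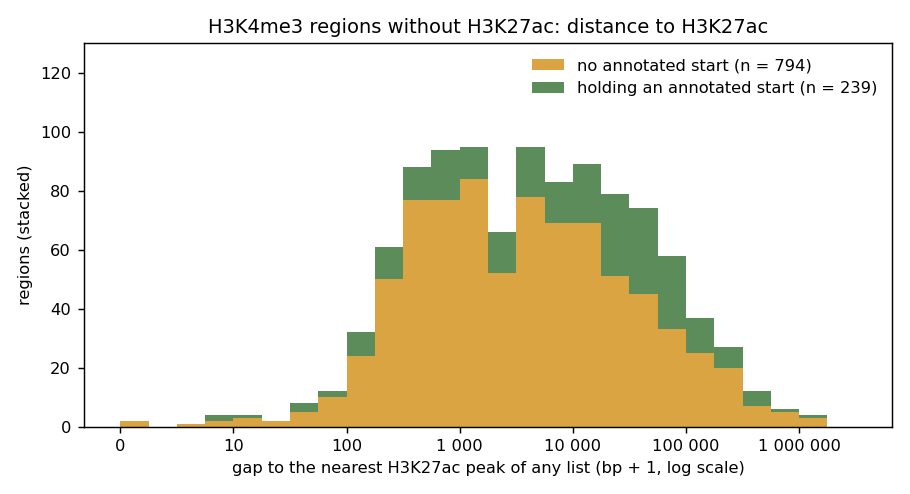
Distance from each member to the nearest H3K27ac peak of any list (x axis, bp, log scale; y axis, number of members in stacked bars), for 239 members holding an annotated start and 794 without; members on chromosome 8, where no starts were at hand, are left out. The median gap is 12085 bp with a start and 3438 bp without.

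Few members lay at gene starts. Of the 1033 members on chromosomes with annotated starts in the table, 239 held one (23.1%, 95% Wilson interval 20.7 to 25.8), against 52.6% of the other shared regions. Within 2 kb of an end of a protein-coding gene lay 375 of the 1066 members (35.2%, 32.4 to 38.1), against 58.7%. Intervals cover the counting of regions only. Members were narrower, at a median of 603 bp against 1719 bp. A wider region can hold a start, reach a gene end or overlap a gene by its width alone. The shares in this paragraph were not matched for width. A protein-coding gene was overlapped by 49.6% of the members and 77.2% of the others, and no annotated gene of any kind by 31.1% and 14.3%. Long non-coding RNA genes were overlapped by 21.0% of the members and 22.9% of the others. Pseudogenes were more frequent among the members, at 3.10% against 0.910%, as were transcribed pseudogenes, at 3.47% against 1.24%. No member overlapped a miRNA or snoRNA gene, where 0.873% and 0.263% of all shared regions, which are mostly wider, did.

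Chromosome X held the highest share of members. There, 71 of 530 shared regions (13.4%) lacked H3K27ac, while chromosome 18 gave 9.32%, chromosome 13 gave 8.86% and chromosome 17, the lowest, 2.43%. On X, H3K4me1 lay on a mean of 75.7% of the members and 91.9% of the other regions. MLL4 lay on a mean of 0.704% of the X members and 7.35% of the other X regions, and tag peaks on 2.11% and 4.79%. RRAGB, a Rag GTPase of amino acid sensing, was an X member of 1107 bp with H3K4me3 at fold 65.4 and 62.1 and no H3K27ac within 94935 bp. Whether copy number or depth on X moves with these shares was not tested.

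The starts inside members were CpG-rich. Of 310 RefSeq promoter windows in members, 76.1% had a CpG ratio of 0.6 or more, with a median ratio of 0.769 (quartiles 0.616 and 0.885). In the other shared regions it was 86.4% of 15365 windows, with a median of 0.846, and among 19286 windows with no shared H3K4me3 it was 18.7%, with a median of 0.263. GC content had a median of 65.2% in member windows, 66.7% in the others and 49.3% without shared H3K4me3. Motifs were searched on both strands. CCGGAAG, the ETS core, occurred in 11.3% of member windows, 18.7% of the others and 10.3% of all 34961. The palindromic NRF1 site occurred in 5.48%, 11.4% and 5.80%. The remaining motifs lay closer together in members and others. CCAAT was in 30.6% and 33.7% (all windows 34.6%), CACGTG in 8.71% and 9.88% (7.27%), and TATAAA in 5.16% and 4.36% (11.5%). TGTTTAC, the forkhead core, was in 2.26% of member windows, 2.13% of the others and 3.42% of all. Windows share genes and bidirectional starts, so these shares carry no test.

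H3K4me1 was found at most members but at fewer of them than of the other regions. In control replicates 1 and 2 it lay on 88.1% and 78.0% of the members, and in FOXD2 replicates 1 and 2 on 83.8% and 80.3%. The other shared regions held it at 98.2% to 99.4% in the same lists, so the classes did not overlap. The mean was 82.5% ± 4.41 in members and 98.8% ± 0.508 in the others (SD, n = 4), a difference of -16.3 ± 3.92 percentage points. It was lower in 4 of 4 libraries (exact two-sided sign-flip permutation p = 0.125, also after Benjamini-Hochberg adjustment over the 3 kinds of library, and the smallest p that 4 libraries allow). With an overlap of 50% of the shorter interval in place of 1 bp the difference was -7.10 points. It was -15.1 points when the other regions were weighted to the members' widths. By bases the classes lay closer. In control replicates 1 and 2, H3K4me1 covered 74.0% and 58.4% of the bases of members, against 73.2% and 62.0% in the others. In FOXD2 replicates 1 and 2 the values were 69.0% and 61.2%, against 71.6% and 63.9%. Members over 10 kb from H3K27ac held H3K4me1 at 72.0% ± 6.07 and those within 1 kb at 90.3% ± 3.24 (SD, n = 4), again in the same order in 4 of 4 libraries (exact permutation p = 0.125).

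Between FOXD2 and control cells the H3K4me1 share of the members differed by less than the spread between replicates with the lists as deposited. It was 83.0% ± 7.16 in control and 82.0% ± 2.45 with FOXD2 (SD, n = 2), which differ by -0.985 points (exact two-sided permutation p = 1, adjusted p = 1 over 2 marks). The groups overlapped, and the sign turned without control replicate 1 (4.08 points), without FOXD2 replicate 2 (0.750) and without the H3K27ac list of FOXD2 replicate 2 (0.034). With all H3K4me1 lists shortened to the same number of peaks the difference was -9.15 points (exact permutation p = 0.667). With 2 libraries against 2 the test cannot go below 0.333. The gap between members and other regions was -15.8 ± 6.32 points in control and -16.9 ± 2.22 in FOXD2 lists (SD, n = 2, exact permutation p = 1), and the difference between these gaps was -8.47 points at equal list lengths (exact permutation p = 0.667).

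Region by region, H3K4me1 lay on 759 members (71.2%) in all 4 lists and on 96 (9.01%) in none, against 97.6% and 0.401% of the other regions. It was in both FOXD2 lists and neither control list at 5 members (0.469%), where 0.0731% of all shared regions had that pattern. The reverse pattern occurred at 23 members (2.16%), against 0.224% of all shared regions. Over all 150847 merged H3K4me1 regions the corresponding shares were 14.2% and 4.39%. The best-ranked FOXD2-only member was at the start of SLC71A2, where H3K4me1 had fold 6.65 and 4.53 in FOXD2 replicates 1 and 2 and no peak in control. H3K4me3 there had fold 57.1 in control and 51.1 in FOXD2 cells. The others lay outside their nearest genes, 40316 bp from MRPL45, 7753 from LINC02884, 46640 from BCHE and 7183 from OPN1LW. The best-ranked control-only member lay in SLC19A1, the reduced folate carrier, with H3K4me1 fold 5.42 and 3.84 in control and no peak in FOXD2 lists. Members nearest to ARPC3, LEUTX, DCHS2 and SLITRK3 followed. The DCHS2 member lay inside the gene, and the rest 2910, 6656 and 9817 bp outside ARPC3, LEUTX and SLITRK3.

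**Figure D3:**
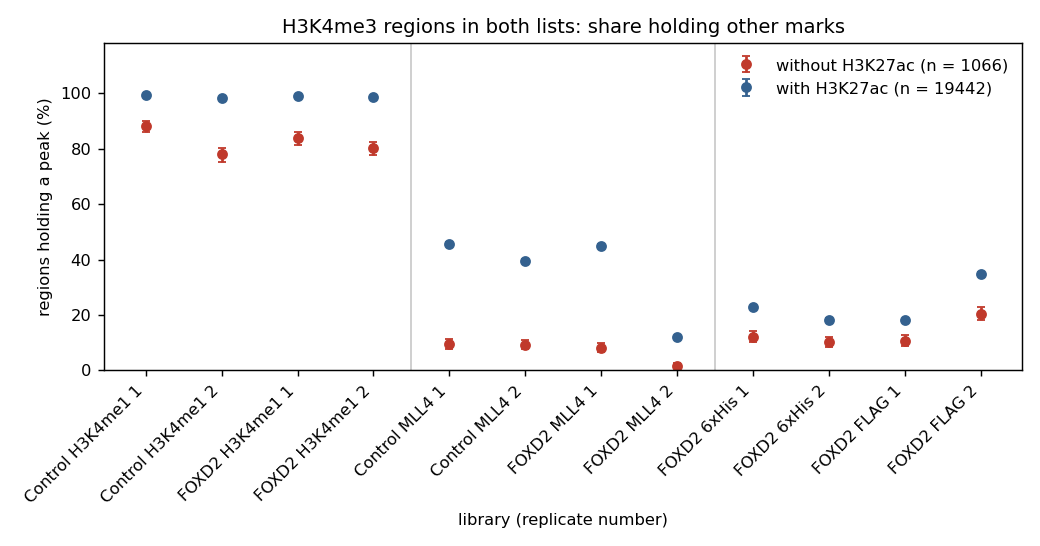
Share of shared H3K4me3 regions that hold a peak (y axis, %) in each H3K4me1, MLL4 and tag library (x axis), for 1066 regions without H3K27ac and 19442 with it; bars are 95% Wilson intervals. Members lie below the other regions in each of the 12 libraries, as with 78.0% to 88.1% against 98.2% to 99.4% for H3K4me1.

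The placement of H3K4me1 within the regions differed as well. At the exact centre of the region, H3K4me1 covered 64.8% ± 6.91 of the members and 53.6% ± 5.92 of the others (SD, n = 4), a difference of 11.3 points with the same sign in 4 of 4 libraries (exact permutation p = 0.125). At 1000 bp to either side the order was the opposite, with 21.1% and 21.7% of the members against 74.1% and 74.3% of the others. At regions with an annotated start the centre was covered in 47.1% ± 6.10 of the members and 28.6% ± 7.55 of the others (SD, n = 4). The pooled order at the centre did not hold at matched width. Among regions under 500 bp, H3K4me1 covered the centre of 72.0% of 395 members and 96.6% of 1288 others. From 500 to 1000 bp the values were 67.7% and 92.3%, and from 1000 to 1500 bp 47.0% and 72.5%. From 1500 to 2000 bp they were 42.7% and 42.8%, and in regions of 2000 bp or more, with 25 members, 51.0% and 24.9%. Of these 5 bands, the exact permutation p was 1 for the fourth and 0.125 for each of the rest (0.156 after adjustment over the 5).

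**Figure D4:**
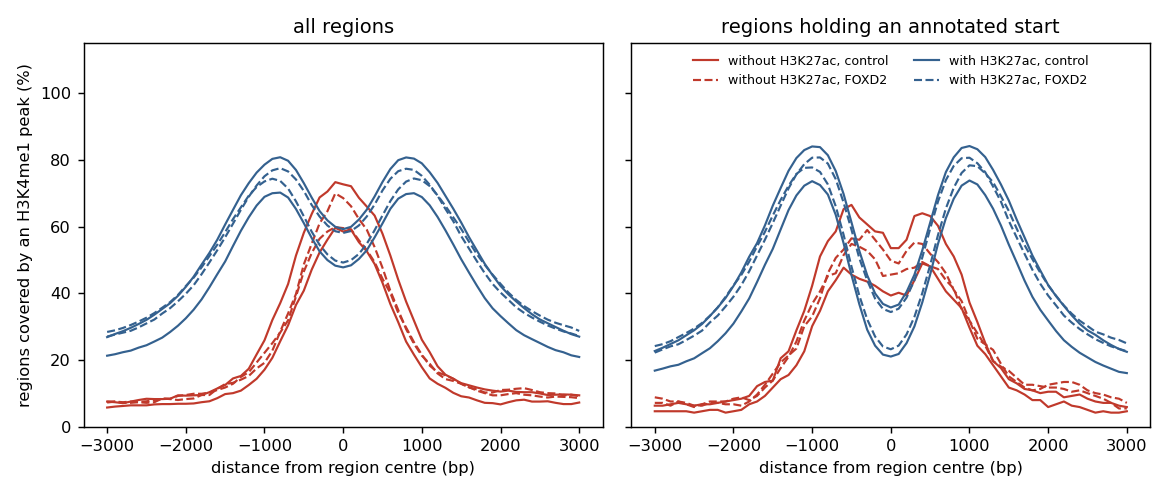
Share of regions covered by an H3K4me1 peak (y axis, %) by distance from the region's centre (x axis, bp), for all regions and for those holding an annotated start; each line is a library, solid for control and dashed for FOXD2. Members are highest near the centre (64.8% on average) and fall to 21.1% at 1000 bp, where the regions with H3K27ac, which are wider, reach 74.1%; at widths under 1500 bp the order at the centre is the opposite.

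MLL4 was infrequent at the members. It lay on 9.38% and 9.19% of them in control replicates 1 and 2, and on 8.16% and 1.69% in FOXD2 replicates 1 and 2. The last value comes from the list of 4676 peaks, which also held the fewest of the other regions. Over 4 lists the mean was 7.11% ± 3.65 in members and 35.5% ± 15.9 in the other regions (SD, n = 4), a difference of -28.4 ± 12.4 points that was negative in 4 of 4 libraries (exact permutation p = 0.125, adjusted p = 0.125 over 3). Control and FOXD2 lists gave 9.29% ± 0.133 and 4.92% ± 4.58 in members (SD, n = 2), a difference of -4.36 points (exact permutation p = 0.333, adjusted p = 0.667 over 2 marks). It was -1.13 points without FOXD2 replicate 2, -7.60 without FOXD2 replicate 1 and -0.047 with all MLL4 lists shortened to the same number of peaks. MLL4 was in both control lists and neither FOXD2 list at 24 members (2.25%), against 6.52% of all shared regions, and in the reverse pattern at 0, against 0.312%. The difference between groups in the gap to the other regions was 9.84 points (exact permutation p = 1).

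Only 11 members carried MLL4 in all 4 lists, and 859 (80.6%) in none, against 34.0% of the others with none. Of the best-ranked members with MLL4 in at least 2 lists, ZBTB7C and ARHGAP24, a GTPase-activating protein, had it in all 4. At ARHGAP24 the folds were 6.46 and 7.76 in control replicates and 5.45 and 4.43 in FOXD2 replicates. At ZBTB7C they were 5.06 and 6.02 in control and 4.19 and 5.14 in FOXD2 lists. ASB8, FAM117B and IL7 had MLL4 in 2 lists.

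Tagged FOXD2 also lay at fewer members than other regions. Tag peaks lay on 12.2% and 10.1% of the members in 6xHis replicates 1 and 2 and on 10.7% and 20.5% in FLAG replicates 1 and 2. The mean was 13.4% ± 4.85, against 23.5% ± 7.87 of the other regions (SD, n = 4), a difference of -10.1 ± 3.12 points with the same sign in 4 of 4 libraries (exact permutation p = 0.125, adjusted p = 0.125 over 3). It shrank to -5.36 points when the other regions were weighted to the members' widths and to -4.89 when weighted to their H3K4me3 ranks. When every list was limited to peaks with −log10 q of at least 5, it was -5.77 points. By bases the classes lay closer. In 6xHis replicates 1 and 2, tag peaks covered 6.79% and 5.72% of the bases of members, against 7.06% and 5.89% in the others. In FLAG replicates 1 and 2 the values were 5.69% and 12.2%, against 4.96% and 13.2%. Each of the 4 tag lists had a peak in 48 members (4.50%, against 8.73% of the others). Neither a tag nor an MLL4 peak lay on 647 members (60.7%), against 21.5% of the others. ARHGAP24 carried tag peaks in 3 lists beside its MLL4, at fold 4.84 in 6xHis replicate 2 and 5.64 and 8.18 in FLAG replicates 1 and 2. HPGD carried them in the same 3 lists at fold 3.14, 3.20 and 3.56, with no MLL4 in any list. CYB5R4, CFAP52 and FRY had tag peaks in 2 lists and FAM117B in 3.

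Genes were then read by function. Of 9906 protein-coding genes with an annotated start in a shared region, 203 had a start in a member (2.05%), and 18 of these had another start in a shared region with H3K27ac. By nearest gene within 100 kb, 975 members fell at 894 protein-coding genes, which is 7.09% of the 12616 genes nearest to any shared region. As a share of regions it was 4.88% of 19972. Genes with many regions have more chances to hold a member, so both shares are given, without a test.

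Neuronal channel and synapse genes had the highest share of the lists with at least 20 genes. Of 74 such genes with a shared region, 26 (35.1%) were nearest to a member, and 32 of their 140 regions (22.9%) were members. The start itself lay in a member at GRIK2 and GRIK4, kainate receptor subunits, at GRM8, a metabotropic glutamate receptor, and at the potassium channels KCNC1 and KCNH2, out of 26 with a start in a shared region. At GRM8 (chr7:127252458-127254119), H3K4me3 had fold 70.6 in control and 69.7 in FOXD2 cells, H3K4me1 was in all 4 lists at fold 4.76 to 10.4, and the nearest H3K27ac lay 129466 bp away. GRIK2 had H3K4me3 fold 58.0 and 56.1 with H3K27ac 101 bp away. SHANK3, a postsynaptic scaffold, held a member inside the gene with H3K4me3 fold 70.6 and 68.9 and MLL4 in all 4 lists at fold 5.87 to 9.69. CACNA1D, a calcium channel subunit, had H3K4me3 fold 69.2 in control and 30.8 in FOXD2 cells, with 1 library of each. Of the 5 neural cell markers, NEUROD1 and GFAP had no shared H3K4me3, SNAP25 overlapped a member, MAP2 overlapped a region with H3K27ac and SYP overlapped both kinds of region.

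Developmental transcription factors came next. Of GATA, SOX, T-box, forkhead, bHLH and related genes, 14 of 63 (22.2%) were nearest to a member and 16 of 129 regions (12.4%) were members. Their starts lay in members at ATOH1, which drives the secretory lineage of the gut, HEY2, a Notch target, FOXN4, INSM2 and ONECUT2, 5 of 29. At ATOH1 (chr4:93828223-93829531), H3K4me3 had fold 56.7 and 50.1 and H3K4me1 fold 15.1 and 8.54 in control and 14.6 and 10.7 in FOXD2 replicates, so that each of the 4 lists called it. For homeobox and paired genes the counts were 13 of 66 (19.7%) and 15 of 127 regions (11.8%), among them LMX1B, TLX3 and POU3F3, but 0 of 31 had the start in a member. LMX1B had a member of 1008 bp inside the gene, and the members at TLX3 and POU3F3 lay 24311 and 48663 bp outside. HOX cluster genes gave 1 of 30, at HOXD10, 1 of 44 regions (2.27%) and 0 of 13 starts. Secreted developmental signals gave 5 of 52 (9.62%), at FGF12, FGF9, SEMA3A, SLIT1 and SLIT3, and 5.00% of their regions.

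The intestinal list gave 3 of 15 genes, ATOH1, AXIN2 and LGR5, and 3 of 28 regions (10.7%). LGR5, the stem cell receptor for R-spondins, had a member of 2133 bp inside the gene with H3K4me3 fold 78.7 and 64.1, H3K4me1 in all 4 lists, and no MLL4 or tag peak. LGR5 also overlapped shared H3K4me3 with H3K27ac. At AXIN2, a Wnt target, the nearest member lay 32894 bp from the gene and held MLL4 in 3 lists. Genes known to be silenced by CpG island methylation in colorectal cancer gave 2 of 22 and 2 of 37 regions (5.41%), with 0 of 11 starts in a member. These members lay 75456 bp outside SOX17 and 601 bp outside TMEFF2. Germline and cancer-testis genes gave 2 of 13, MEI1 and POTEC, 3 of 24 regions (12.5%) and 1 of 6 starts, at MAEL. The member for MEI1 lay inside the gene, and those for POTEC lay 48208 and 48872 bp outside. Genes of H3K4 methyltransferases and Polycomb complexes gave 3 of 41 (7.32%) and 3 of 91 regions (3.30%), with the start of KMT2C and members near NCOA6 and RBBP7. Cell cycle genes gave 4 of 37 (10.8%), CCND3, CDC25B, CDK6 and RRM1, and 4 of 59 regions (6.78%). The member for RRM1 lay 36654 bp outside the gene.

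In the large families, zinc finger (ZNF) genes gave 23 of 345 (6.67%), 25 of 473 regions (5.29%) and 6 of 306 starts, including ZNF519, ZNF322, ZNF112 and ZNF443. Solute carriers gave 13 of 235 (5.53%) and 14 of 377 regions (3.71%). Histone genes gave 2 of 37 (5.41%) and 3 of 50 regions (6.0%), and ribosomal protein genes 2 of 65 (3.08%) and 2 of 81 regions (2.47%). The histone members lay 39664 and 53269 bp outside H2BC11 and 42075 bp outside H2BC18. The member for RPLP0 overlapped that gene, and the member for RPL10L lay 59144 bp outside. Keratin genes gave 0 of 14, with 0 of 32 regions, and clustered protocadherin genes 0 of 5. Olfactory receptor genes gave 5 of 15 and 5 of 23 regions (21.7%), including the start of OR52N2. The members for OR6S1, OR13H1 and OR8B8 lay 9559, 33680 and 35980 bp outside those genes. Among genes of other cell types, the blood list gave 1 of 6 and 1 of 7 regions, 351 bp outside HBA1. The stromal and endothelial list gave 0 of 10, with 0 of 20 regions.

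**Figure D5:**
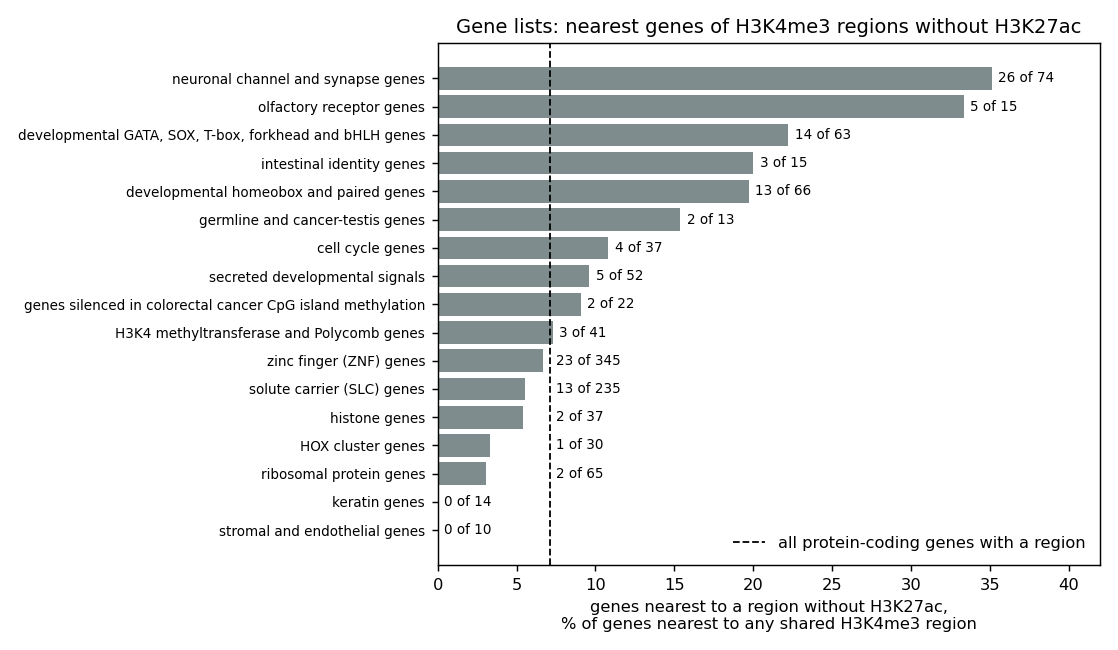
Genes nearest to a member as a percentage of genes nearest to any shared H3K4me3 region (x axis) for the 17 gene lists with at least 10 such genes (y axis), with counts beside the bars; the dashed line marks 7.09%, the share over all protein-coding genes. Neuronal channel and synapse genes reach 35.1%, and ribosomal protein genes 3.08%.

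Few genes had more than 1 member. Of the genes of any kind nearest to a member, 902 had 1, 65 had 2, 9 had 3 and CACNA1C had 4. CACNA1C encodes the pore of an L-type calcium channel, and its 4 members, all inside the gene, were among 7 shared regions there. H3K4me3 folds of these members in FOXD2 cells ran from 8.37 to 17.4. All 3 shared regions at BCL11A were members, as were all 3 at each of NBPF20, OXGR1 and RABL2B. At BCL11A the largest spans the start at fold 75.2 and 67.9, and a second lies inside the gene at 47.2 and 41.5. The third lies 27440 bp away at 36.6 and 27.9. MECOM, a zinc finger oncogene, had 3 members among 4 shared regions. Of these, 1 holds a start with H3K4me3 fold 28.9 and 32.3 and the nearest H3K27ac 193852 bp away. LOC101926935, MRPL45 and TYW1B also had 3 members among 4 shared regions each, and RSRP1 had 3 among 6.

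The 96 members without H3K4me1 in any list were narrow and mostly remote from H3K27ac. Their median width was 475.5 bp, 63 lay over 10 kb from H3K27ac, 3 held MLL4 in any list and 8 a tag peak. Of the 96, 16 (16.7%) overlapped a transcribed pseudogene, against 1.32% of the 759 members with H3K4me1 in all 4 lists. The best ranked were at NBPF15, with H3K4me3 fold 96.6 and 83.4, TYW1B with 83.7 and 78.6, LINC00680 with 74.0 and 65.1, RRAGB, and RABL2B with 77.5 and 57.4. None of these 5 had MLL4. The start of KMT2C, an H3K4 methyltransferase, was also in this subset, with H3K4me3 fold 45.2 and 45.3. NBPF15, TYW1B, RABL2B and KMT2C have near-identical copies elsewhere in the genome. The sources used here do not give how reads matching several copies were placed, so the location of these peaks is uncertain.

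Transfer RNA genes were overlapped by 9 members (0.844%, against 0.381% of the other regions). The 4 on chromosome 6, at TRV-AAC6-1, TRT-CGT3-1, TRW-CCA3-2 and TRQ-CTG1-3, each held H3K4me1 in 4 lists and tag peaks in all 4 tag lists, with H3K4me3 folds of 9.46 to 18.2 in control and no MLL4. Another 3, on chromosome 1, held neither H3K4me1, MLL4 nor a tag peak. Some tRNA genes also occur as near-identical copies, so the same uncertainty applies to them.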

How the data were processed

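The authors deposited 1 MACS2 narrowPeak list for each of 18 libraries; the 7 inputs were left out. Per the submitters' processing notes, the build was hg38 and the tools included MACS2 2.2.7.1, Bowtie2 2.3.4.1, cutadapt 3.4, bedtools and Picard. In the deposited lists, column 7 gives fold enrichment (a ratio), column 8 the −log10 p and column 9 the −log10 q of each peak. The background library, read depth and handling of multiply mapping reads are not given in the sources used here. Peak names in some files carry another replicate number than the labels, which were followed.

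Peaks on chromosomes 1 to 22 and X were merged with a gap of 0 bp, and a library held a region that any of its peaks overlapped by 1 bp or more. The share of regions held per library was compared by exact two-sided permutation: 2 control against 2 FOXD2 libraries, or sign flips of the difference between region classes over 4 libraries. Genes came from the RefSeq table of GRCh38.p14, in which 2261 of the 2262 symbols in 19 gene lists matched; it gives no strand, so starts came from the RefSeq promoter windows, which are incomplete and hold none on chromosome 8. The members and gene lists were chosen with earlier results of these data known. Genes were named by a rule: the 10 best-ranked and 5 widest members, the 5 best-ranked of each H3K4me1 pattern and of those with MLL4 or a tag peak in at least 2 lists, up to 4 of each gene list, the members nearest to and regions just past the H3K27ac limit, and the 5 genes with most members. Each was named by its nearest protein-coding gene, or by another annotated gene where none lay within 100 kb. Alternatives were equal list lengths, a −log10 q minimum of 5, a 50% overlap, a 500 bp merging gap, a 1 kb margin, regions of 500 bp or more, weighting to width, each library left out, and a replicate block. Weighting to H3K4me3 rank and gene starts alone were added after seeing the data. The steps were tested on simulated lists. Python 3.11.15, numpy 2.4.6, pandas 2.3.3, scipy 1.17.1 and matplotlib 3.10.9 were used.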

Additional observations from a re-analysis of the deposited data

How the results depend on the processing

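The differences between members and other shared regions in the share holding H3K4me1, MLL4 and tag peaks kept their sign under every alternative run. With 4 libraries, however, no exact test could pass 0.05. The share of bases covered was not among these alternatives. Leaving out single libraries gave -18.0 to -13.8 points for H3K4me1, -34.4 to -25.6 for MLL4 and -12.1 to -7.63 for the tags. The FOXD2 minus control difference in H3K4me1 of the members had no stable sign: it ran from -6.05 to 4.08 points without single libraries, was 0.82 in regions of 500 bp or more, and was -9.15 at equal list lengths. Its gap to the other regions ran from -5.57 to 3.37, was 0.723 in regions of 500 bp or more, and was -8.47 at equal list lengths; the cause was not tested. For MLL4 it ran from -7.60 to -1.13 points without single libraries and was -0.047 at equal list lengths. The number of members was 671 at 500 bp or more, since narrow regions drop out, 1452 with −log10 q of 5 or more in every list, 1318 with a 50% overlap, 958 with a 500 bp gap, and 1175 to 1477 without single H3K27ac lists. The share near a protein-coding gene end was 38.3% with −log10 q of 5 or more in every list, 31.8% with the 500 bp gap, 42.9% in regions of 500 bp or more, 42.7% within 5 kb, and 34.9% to 38.2% without single lists. Libraries share only a replicate number: deviations of same-numbered libraries correlated at 0.22 for H3K4me1 and 0.033 for MLL4 over 20508 regions. With a replicate block the FOXD2 minus control differences were -0.985 points for H3K4me1 (exact permutation p = 1), -4.36 for MLL4 (exact permutation p = 0.5, the smallest 2 pairs allow) and -1.10 for the H3K4me1 gap (exact permutation p = 1). Unknown depth means that missing H3K27ac cannot be told apart from H3K27ac too weak to be called.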
